A study of Mus musculus with 2 samples.

Results

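The genes described here are 7 receptors of the TREM and CD300 families and 2 adaptors of the DAP12 type. The adaptors are partners of many such receptors, though not of each one named here. They were chosen by gene symbol: Tyrobp and Hcst (the adaptors DAP12 and DAP10), Trem1, Trem2, Trem3, Treml2, Treml4, Cd300lb and Cd300ld. All 9 were found among the 55536 genes measured, with 27 of the 141864 annotated transcripts. The RNA came from splenic neutrophils, used as primary cells, of virgin adult male B6CASTF1/J mice aged 65 days, and was profiled by total RNA-seq. This F1 cross has C57BL/6 as the maternal and CAST Eij as the paternal strain. There is 1 group of 2 libraries, named biological replicates 1 and 2, each prepared with a directional kit from 300 ng, ERCC spike-in included. The labels name no treatment. Both libraries carry 1 donor identifier, so the spread between them may be technical, and how the cells were purified is not given in the sources used here. With 1 group there is no comparison between conditions, and none was made.

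TREM and CD300 receptors are single-immunoglobulin-domain proteins of myeloid cells. Most activating members have a short tail with no signalling motif and pair in the membrane with an adaptor dimer. DAP12 carries an immunoreceptor tyrosine-based activation motif (ITAM), whose phosphorylated tyrosines recruit the kinase Syk. DAP10 carries a tyrosine-x-asparagine-methionine motif (YxNM) that binds phosphatidylinositol 3-kinase and Grb2. In neutrophils and monocytes, TREM1 is known as an amplifier of responses to microbial products, whereas TREM2 is best known from macrophages and microglia.

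The adaptor motifs are shown first, because they are what the receptors borrow. Both were read from mm10 through the coding frame of GENCODE M21 transcripts, 5′ to 3′, with the tyrosine codons in capitals. The Tyrobp stretch lies on the plus strand and spans a splice junction, at chr7:30415670-30415675 and chr7:30417344-30417382. The Hcst stretch lies on the minus strand at chr7:30417821-30417832.
Tyrobp ITAM: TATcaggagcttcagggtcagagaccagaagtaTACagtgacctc
Hcst YxNM: TACatcaacatg
None of the coding transcripts of the 7 receptors held either codon pattern in frame. The pattern taken as ITAM-type was a pair of tyrosine codons, each with a leucine or isoleucine codon in the third place after it, with 6 to 8 codons between the units.

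The members lie in 3 places in mm10. Trem1 (ENSMUSG00000042265.13, chr17:48232768-48246924), Trem3 (ENSMUSG00000041754.5, chr17:48247777-48258841), Treml4 (ENSMUSG00000051682.15, chr17:48264295-48275360), Treml2 (ENSMUSG00000071068.7, chr17:48299498-48312533) and Trem2 (ENSMUSG00000023992.14, chr17:48346401-48354147) follow each other on the plus strand. Trem3 begins 852 bp after the end of Trem1. The adaptors are neighbours: Tyrobp (ENSMUSG00000030579.10, chr7:30413760-30417585, plus strand) and Hcst (ENSMUSG00000064109.8, chr7:30417712-30419854, minus strand) point at each other across 126 bp and do not overlap. Cd300lb (ENSMUSG00000063193.8, chr11:114922781-114934386) and Cd300ld (ENSMUSG00000034641.2, chr11:114982274-114989922) are both on the minus strand.

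Depth was similar in the libraries, at 18387963 expected counts in replicate 1 and 18090108 in replicate 2. Levels are the deposited TPM (a level per transcript length and per library), by the tables laid out as RSEM writes them unless kallisto is named. Of all TPM the 7SL RNA genes held 43.8% (replicate 1) and 31.6% (replicate 2) and protein-coding genes held 32.8% and 45.4%, so the same mRNA share gives a lower TPM in replicate 1. Protein-coding TPM below means TPM rescaled over protein-coding genes alone. All 10 neutrophil markers (such as S100a8, S100a9 and Ngp) had at least 1 TPM in both libraries, and together reached 37764 TPM in replicate 1 and 75257 TPM in replicate 2. Intervals on counts are exact Poisson 95% intervals. They cover counting error only, because no molecular identifiers were used to separate molecules from PCR copies.

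Tyrobp, the ITAM adaptor, was the most abundant member. It held 633 TPM in replicate 1 and 1025 TPM in replicate 2 (829 ± 277, SD, n = 2), from 6460 and 8918 expected counts. It stood at percentile 99.8 of the 14633 protein-coding genes above 0 TPM in either library. Hcst, the YxNM adaptor, held 39.9 TPM in replicate 1 and 50.9 TPM in replicate 2 (45.4 ± 7.79, n = 2). Its mRNA is short, and these levels rest on 285 counts (253 to 320) in replicate 1 and 315 counts (281 to 352) in replicate 2. Tyrobp thus exceeded Hcst 15.9-fold in replicate 1 and 20.1-fold in replicate 2.

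Among the receptors the order began with Trem1, the amplifier receptor. Trem1 held 280 TPM in replicate 1 and 404 TPM in replicate 2 (342 ± 87.3, n = 2), from 17558 and 21467 counts, the highest counts of any member. Trem3, a DAP12-paired receptor in mouse and a pseudogene in human, held 122 TPM in replicate 1 and 168 TPM in replicate 2 (145 ± 32.3, n = 2). Neither range touched that of a neighbour in the order. Trem2, the macrophage and microglia receptor, was the lowest member, at 3.94 TPM in replicate 1 and 4.85 TPM in replicate 2 (4.40 ± 0.643, n = 2). It rested on 104 counts (85.0 to 126) and 105 counts (85.9 to 127). Trem1 exceeded Trem2 71.2-fold in replicate 1 and 83.3-fold in replicate 2, although both belong to 1 gene cluster. Trem2 stood at percentile 49.7 of protein-coding genes in replicate 1 and 49.9 in replicate 2.

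The TREM-like receptors lay between these ends. Treml2, which encodes TLT-2, held 39.3 TPM in replicate 1 and 61.4 TPM in replicate 2 (50.3 ± 15.6, n = 2). Treml4 held 8.67 TPM in replicate 1 and 13.35 TPM in replicate 2 (11.0 ± 3.31, n = 2), from 257 counts (227 to 290) and 322 counts (288 to 359). Treml2 thus came after Trem1 and Trem3 among the receptors, and Treml4 stood apart from both of its neighbours. The CD300 receptors were close to Treml2. Cd300lb, an activating receptor that pairs with DAP12, held 36.0 TPM in replicate 1 and 56.1 TPM in replicate 2 (46.1 ± 14.2, n = 2). Cd300ld, which in mouse pairs with the Fc receptor gamma chain, held 33.1 TPM in replicate 1 and 48.8 TPM in replicate 2 (40.9 ± 11.1, n = 2).

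The ranges of Treml2, Cd300lb, Hcst and Cd300ld overlapped, so the order among these 4 neighbours is not larger than the spread between the libraries. Hcst took place 4 of 9 in replicate 1 and place 6 in replicate 2. The steps from Tyrobp to Trem1, Trem1 to Trem3, Trem3 to Treml2, Cd300ld to Treml4 and Treml4 to Trem2 were each between 2.20-fold and 3.81-fold in both libraries. Every member had at least 1 TPM in both libraries, as did 43.3% of protein-coding genes. The median of the members was 39.3 TPM in replicate 1 and 56.1 TPM in replicate 2, beside medians of 4.03 and 4.87 TPM over protein-coding genes above 0.

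**Figure D1:**
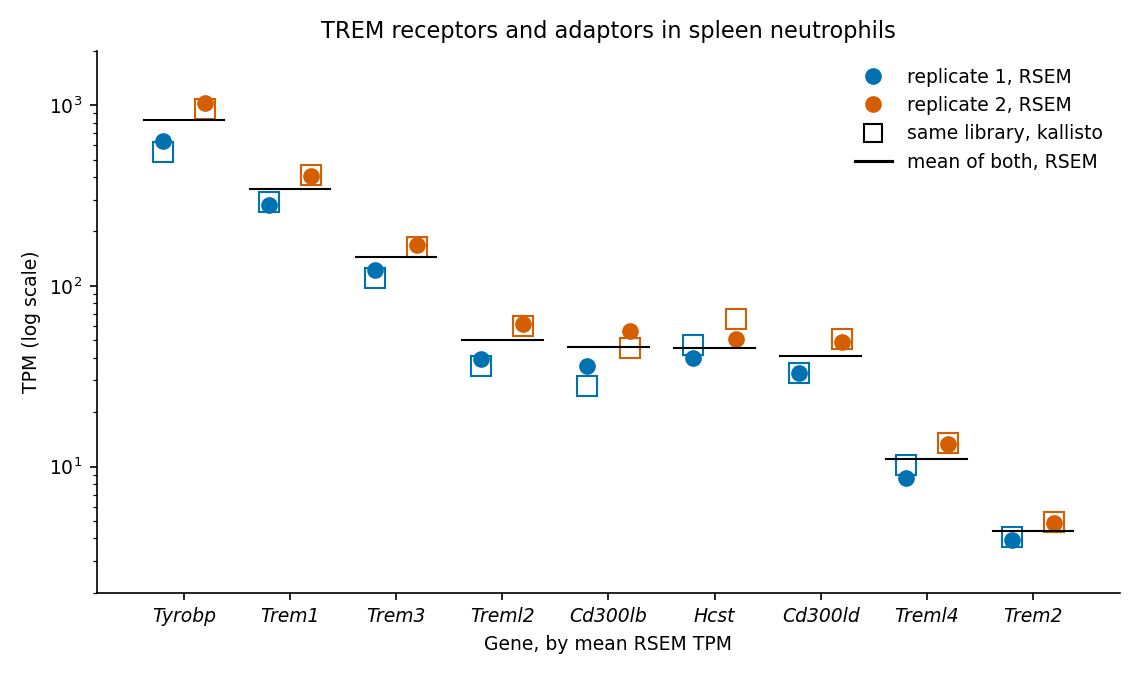
TPM (log axis) of each of the 9 genes in replicate 1 (left, blue) and replicate 2 (right, orange), with RSEM values as filled points, kallisto values as open squares and the mean of the RSEM values as a line. Tyrobp and Trem1 lead at 829 and 342 TPM on average, 4 genes average between 40.9 and 50.3 TPM, and Trem2 is lowest at 4.40 TPM.

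The level of Tyrobp was set against the summed level of the 7 member receptors, within each library. These were not chosen for pairing with it. The sum also leaves out the other receptors listed as partners of DAP12 or DAP10, which held 360 TPM in replicate 1 and 488 TPM in replicate 2. Tyrobp reached 1.21 times the summed TPM of the 7 receptors in replicate 1 (633 against 524 TPM) and 1.36 times in replicate 2 (1025 against 756 TPM), a log2 ratio of 0.36 ± 0.12 (n = 2). Trem1 made up 53.6% of the receptor TPM in replicate 1 and 53.4% in replicate 2. Trem1 and Trem3 together made up 76.9% and 75.6%, so the composition of the receptor pool differed less between the libraries than its total by deposited TPM. That total also follows the scale, because the same mRNA share gives a lower TPM in replicate 1. By kallisto the log2 ratio of Tyrobp to the receptors was 0.10 in replicate 1 and 0.34 in replicate 2. These are ratios of RNA, in which Cd300ld is counted although it is known to pair with another chain, and they say nothing of protein.

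An exact binomial test, two-sided, on expected counts and TMM library sizes was then run for each of the 15118 genes that held 10 or more counts over both libraries, with Benjamini-Hochberg adjustment over all of them. This compares these libraries and not conditions. A total of 7 of the 9 members passed at 0.05, all 7 higher in replicate 2 and 0 higher in replicate 1. Over all genes tested 32.1% passed, made up of 15% higher in replicate 1 and 17% higher in replicate 2, as shares of those tested. Where both libraries together held 200 counts or more, as they do for each member, 42.6% of genes passed. The log2 ratio of replicate 1 over replicate 2 had a median of -0.31 over the members, beside -0.00 over all genes tested.

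Tyrobp differed most, with a log2 ratio of -0.45 (adjusted p = 1.37e-79). Treml2 had a ratio of -0.44 (adjusted p = 6.12e-29) and Cd300lb one of -0.40 (adjusted p = 1.08e-18). Trem1 had a log2 ratio of -0.27 and Trem3 one of -0.21, with adjusted p = 1.23e-75 and 1.85e-06 in the binomial test. The smaller p of Trem1 goes with its higher counts and not with a larger ratio than that of Cd300lb. Cd300ld had a log2 ratio of -0.31 (adjusted p = 6.73e-11), and Treml4 had the same ratio of -0.31 at an adjusted p = 0.0372 by the binomial test. Hcst at -0.13 (adjusted p = 0.457) and Trem2 at 0.00 (adjusted p = 1) did not pass. For Treml4 the adjusted p was 0.0519 with no count minimum and 0.395 on kallisto counts, so its call rested on the filter and the quantifier.

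The test counts sampling error alone, and the libraries varied more than that. With the common biological coefficient of variation of 0.164 fitted by edgeR over 13089 genes, the edgeR exact test called 0 of the 9 members, also at an unadjusted p under 0.05, and 1.63% of all genes. That variation was fitted on the same 2 libraries taken as 1 group, so it includes the difference tested. The 0 of 9 therefore says little about whether the members differ. The direction also depended on the scale. By deposited TPM all 9 members were higher in replicate 2, and by protein-coding TPM 6 of the 9 were, with log2 ratios of 0.01 for Trem3, 0.12 for Hcst and 0.17 for Trem2 on that scale. On it Trem3 held 372 in replicate 1 and 370 in replicate 2, whereas Tyrobp held 1930 and 2258. The neutrophil markers moved the same way: all 10 passed higher in replicate 2, with a median log2 ratio of -0.48. Their part in the members' difference was not tested. In bulk RNA a different number of cells of a type and a different amount of RNA per cell cannot be told apart. Scaling by the ERCC spike-in shifted the median of all genes by -0.74 in log2, called 75.1% of all genes tested and left 1.65% of those calls higher in replicate 1, against 46.9% under TMM. The 9 members were all called higher in replicate 2 on that scale, as most genes were.

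**Figure D2:**
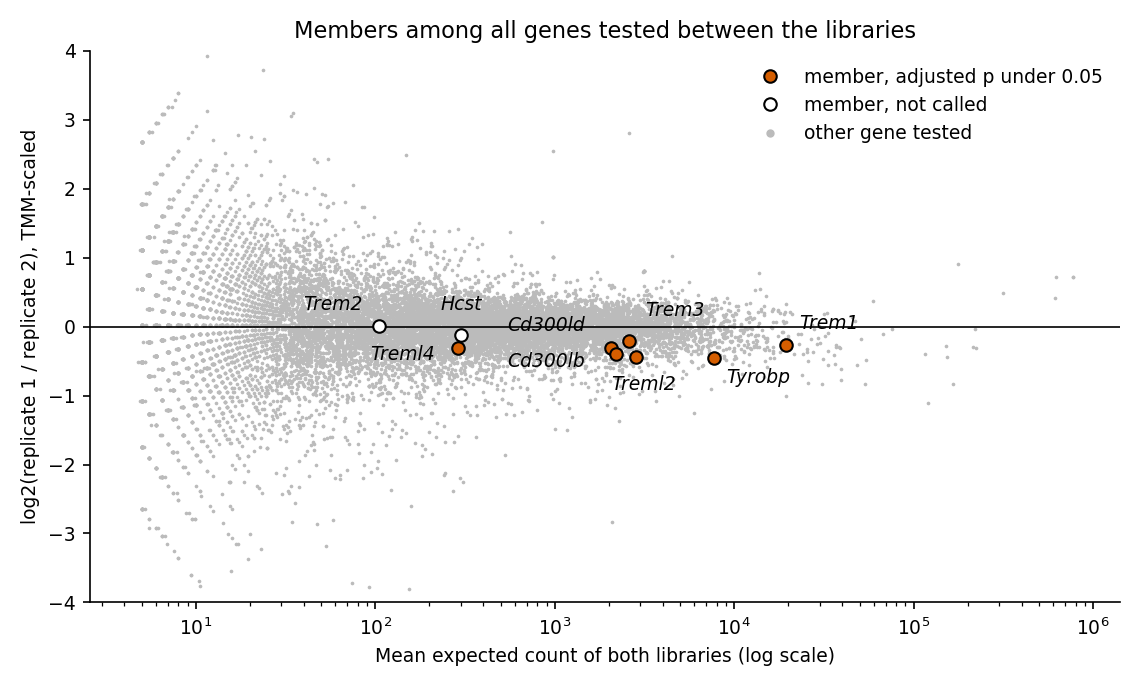
Log2 ratio of replicate 1 over replicate 2 after TMM scaling, against the mean expected count (log axis), for all genes tested (grey) and the 9 members (filled where the adjusted p is under 0.05). The members lie between -0.45 and 0.00, and their place among genes of like counts was not tested. A further 115 genes lie beyond the plotted range of the ratio.

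The authors' tables hold a second quantification, laid out as kallisto writes it, and it gave every member a level within 2-fold of the first. A gene was called apart when kallisto and RSEM differed by more than 2-fold, the same way in each library, with 0.1 TPM added to both. None of the 9 members was apart (0 of 9), against 13.2% of all genes above 1 TPM by either quantifier and 4.19% of the protein-coding ones. With shares that low in the background, 0 of 9 says little about the members. The widest gaps were those of Cd300lb, with a log2 ratio of kallisto over RSEM of -0.36 in replicate 1 and -0.30 in replicate 2, and of Hcst, with 0.24 and 0.37. By kallisto, Hcst held 47.1 TPM in replicate 1 and 65.8 TPM in replicate 2, which placed it above Treml2 at 36.2 and 59.8 TPM. Its kallisto mean of 56.5 TPM lay further from its RSEM mean of 45.4 TPM than the SD of 7.79 TPM between the libraries. Sequence shared with other genes was rare: 35 of the 2546 windows of 100 nt in Cd300ld (1.37%) also occurred in Cd300lf, an inhibitory receptor, and no other member shared any. The expected counts of Cd300ld, 1836.09 and 2304.67, were the only ones of the members that were not whole numbers.

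Agreement at the gene level did not extend to the transcripts of every member. Of the 7 members with more than 1 transcript, 4 (Hcst, Trem1, Trem2 and Treml4) had the same leading transcript in both libraries by both quantifiers. Within kallisto alone 5 did, and within RSEM alone 7 did. Trem3 and Cd300ld have 1 annotated transcript each.

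**Figure D3:**
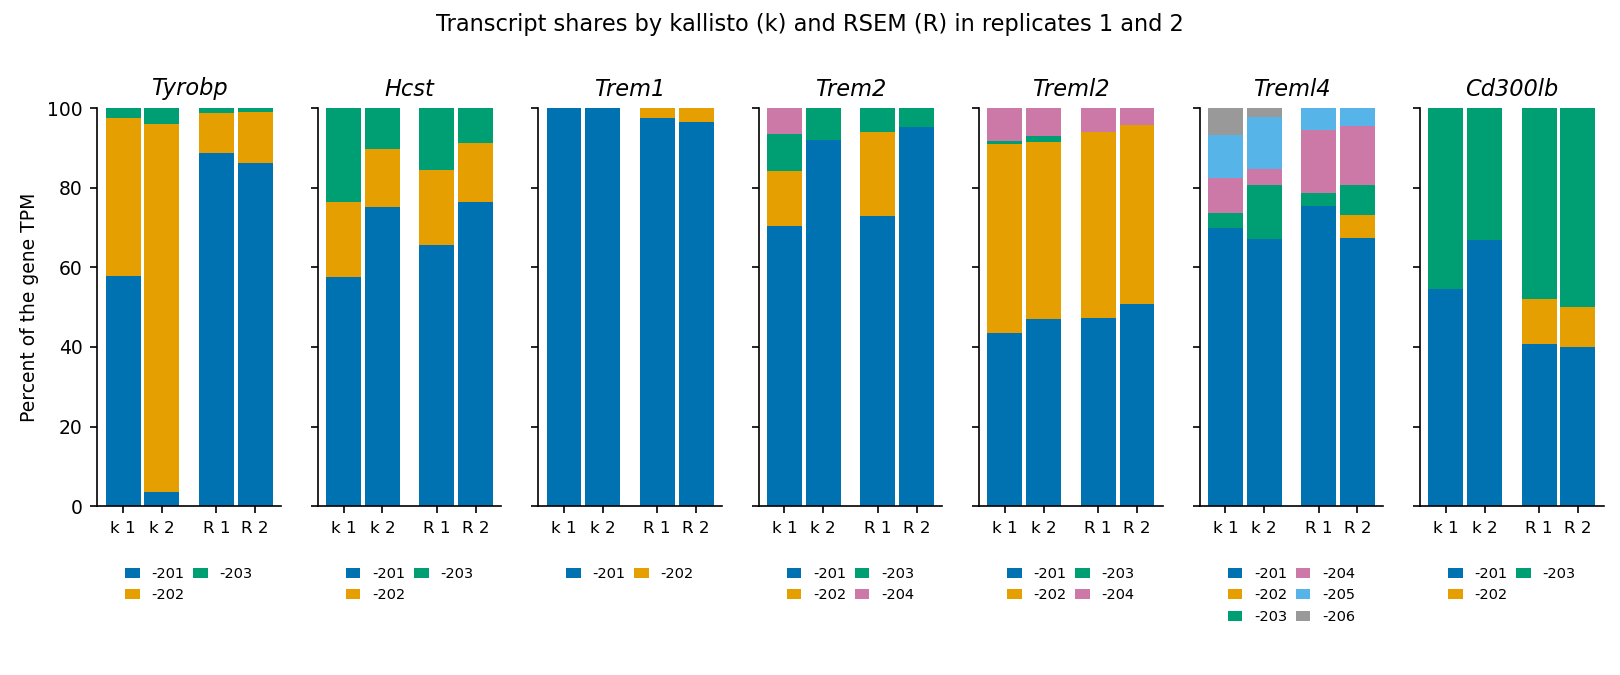
Percent of each gene's TPM taken by each transcript (stacked bars, numbered as in GENCODE), by kallisto (k) and RSEM (R) in replicates 1 and 2, for the 7 genes with more than 1 transcript. By kallisto Tyrobp-201 takes 57.9% (replicate 1) and 3.62% (replicate 2). RSEM gives it 88.6% and 86.2%. For Trem1, Trem2, Treml2 and Treml4 the blue part is the transcript named first in the text.

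Tyrobp was the extreme case. By kallisto, Tyrobp-201 took 57.9% of the gene in replicate 1 and 3.62% in replicate 2, and Tyrobp-202 took 39.5% and 92.5%. By RSEM, Tyrobp-201 took 88.6% and 86.2%, with 5681 and 7612 counts and deposited posterior standard deviations of 111 and 161 counts. The pair can hardly be told apart by reads: Tyrobp-202 is Tyrobp-201 with 28 nt more at its 5′ end and 5 nt more at its 3′ end. Of the 465 windows of 100 nt in Tyrobp-201, 0 are absent from Tyrobp-202, and of the 498 in Tyrobp-202, 33 are absent from Tyrobp-201. Both hold the ITAM codons in frame, and together they took 97.4% and 96.1% of the gene by kallisto and 98.7% and 98.9% by RSEM. The remaining transcript, Tyrobp-203, is annotated as a target of nonsense-mediated decay. It contains the ITAM bases outside its annotated reading frame and took 2.57% and 3.91% by kallisto and 1.33% and 1.07% by RSEM. The sequences below are what separates these transcripts: the 28 nt at the start of Tyrobp-202 (chr7:30413760-30413787) and the exon that only Tyrobp-203 has among them (chr7:30415008-30415074), both mm10, plus strand.
Tyrobp-202 start: ttcctccttcacttggttggacgtcaca
Tyrobp-203 exon: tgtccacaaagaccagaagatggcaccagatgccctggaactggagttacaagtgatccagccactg

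Hcst had the same leading transcript throughout. Hcst-201 took 57.5% in replicate 1 and 75.2% in replicate 2 by kallisto, and 65.7% and 76.3% by RSEM. Hcst-203 lacks an exon of 24 nt and took 23.6% and 10.4% by kallisto, and 15.5% and 8.76% by RSEM. Both hold the YxNM codons in frame, and together they took 81.1% and 85.5% by kallisto, so the share of Hcst RNA that encodes the motif varied less than its split. The retained-intron transcript Hcst-202 took 18.9% and 14.5% by kallisto and 18.8% and 14.9% by RSEM. Hcst-201 and Hcst-203 also differ in length outside that exon, at 442 nt and 366 nt. The exon of Hcst-201 that Hcst-203 lacks lies at chr7:30418619-30418642 in mm10, minus strand.
Hcst-201 exon: tggctgcaagtcagacatcggcag

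Trem1 was almost entirely its full-length transcript, ENSMUST00000048782.6. This took 100% of the gene in both libraries by kallisto, and 97.5% in replicate 1 and 96.6% in replicate 2 by RSEM. The other transcript, ENSMUST00000113251.9, skips the second exon of 357 nt (chr17:48236998-48237354), which shortens the coding length to 333 nt against 690 nt in the full-length form. It was listed at 0 by kallisto in both libraries, and RSEM gave it 297 and 509 counts with deposited posterior standard deviations of 26.3 and 32.9 counts. Whether the skipped form was present is therefore not settled between the quantifiers. The forms also differ in length outside the skipped exon, at 2993 nt for the full-length form and 2077 nt for the other. Junctions that distinguish the forms are given with the bases after the junction in capitals (mm10, plus strand). Both begin at chr17:48232824-48232843, and they continue at chr17:48236998-48237017 in the full-length form and at chr17:48241486-48241505 in the skipped one.
Trem1 full-length junction: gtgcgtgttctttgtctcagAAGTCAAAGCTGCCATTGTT
Trem1 exon-skipping junction: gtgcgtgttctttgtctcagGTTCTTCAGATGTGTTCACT

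Trem2 transcripts rest on few reads. The leading transcript, ENSMUST00000024791.14, took 70.5% in replicate 1 and 92.0% in replicate 2 by kallisto, and 72.8% and 95.2% by RSEM. The retained-intron transcript ENSMUST00000132340.1, of 4784 nt, took 9.31% and 8.03% of the TPM by kallisto. In counts its part was larger, at 48.8 of 134 in replicate 1 and 40.5 of 126 in replicate 2. RSEM gave it 24.9 of 104 counts and 20.4 of 105 counts. A coding alternative, ENSMUST00000113237.3, extends an inner exon by 55 nt at its 5′ end. By kallisto it took 13.7% in replicate 1, from 13.1 estimated counts, and was listed at 0 in replicate 2. RSEM gave it 17.3 counts in replicate 1 and 0 in replicate 2, with posterior standard deviations of 7.43 and 4.69 counts. The difference between the libraries in this extended form is thus one of a few counts, carried by the 55 nt at chr17:48351691-48351745 (mm10, plus strand) shown here.
Trem2 exon extension: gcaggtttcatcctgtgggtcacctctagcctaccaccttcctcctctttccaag

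Treml2 was divided evenly by TPM, though not by counts. Transcript ENSMUST00000170941.2 took 43.6% in replicate 1 and 47.1% in replicate 2 by kallisto, and ENSMUST00000233092.1 took 47.3% and 44.4%. In kallisto counts ENSMUST00000170941.2 held 1683 in replicate 1 and 2368 in replicate 2, against 908 and 1103 for ENSMUST00000233092.1. The latter has 1 exon that is 177 nt longer. The forms also differ in length outside that exon, at 3983 nt for ENSMUST00000170941.2 and 2094 nt for ENSMUST00000233092.1. By RSEM the shares of ENSMUST00000170941.2 were 47.3% and 50.9%. The quantifiers gave similar shares here, and the leading form differed between the kallisto libraries. For Cd300lb the quantifiers differed in the leader: kallisto gave Cd300lb-201 54.5% and 67.0%, and RSEM gave Cd300lb-203 47.9% and 49.9%. Cd300lb-203 has a second exon of 106 nt where Cd300lb-201 has one of 330 nt, and a coding length of 357 nt against 765 nt. For Treml4, ENSMUST00000059873.13 took 69.8% and 67.2% by kallisto and 75.3% and 67.3% by RSEM, and the other 5 Treml4 transcripts shared the rest.

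Promoter sequence, from 250 bases before to 50 after the start, was available from RefSeq (GRCm38.p6) for 6 of the 9 members, all but Trem3, Treml2 and Tyrobp. Both strands were searched for GAGGAA, the core letters bound by the myeloid ETS factor PU.1, and for TTNNGNAA, the form bound by C/EBP factors. Some runs of bases can match both patterns. GAGGAA occurred in 4 of the 6 and in 28.3% of all 32817 promoters of the same length, and TTNNGNAA occurred in 5 of the 6 and in 40.7%. Trem1 and Trem2, the highest and the lowest receptor of the cluster, are shown with GAGGAA, or its complement on the minus strand, in capitals. Trem1 (chr17:48232489-48232788) has it at position -162 from the start on the plus strand, and Trem2 (chr17:48346151-48346450) at position -40 on the minus strand. Both promoters hold TTNNGNAA as well, so these letters do not distinguish the pair. A match is a description of sequence, not of binding.
Trem1 promoter: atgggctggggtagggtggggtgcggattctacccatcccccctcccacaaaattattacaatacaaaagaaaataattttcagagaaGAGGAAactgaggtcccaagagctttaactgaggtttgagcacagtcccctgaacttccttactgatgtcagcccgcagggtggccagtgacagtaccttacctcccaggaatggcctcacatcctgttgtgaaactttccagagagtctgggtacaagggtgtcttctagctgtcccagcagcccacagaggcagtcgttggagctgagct
Trem2 promoter: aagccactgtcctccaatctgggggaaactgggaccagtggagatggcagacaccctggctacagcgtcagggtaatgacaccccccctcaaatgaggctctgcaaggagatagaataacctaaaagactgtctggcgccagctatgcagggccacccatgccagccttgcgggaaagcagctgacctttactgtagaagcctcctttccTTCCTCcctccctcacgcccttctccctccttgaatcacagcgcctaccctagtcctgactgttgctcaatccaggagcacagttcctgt

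The rest of the pathway was described with 6 lists, of which 78 genes were found and 53 had at least 1 TPM in both libraries. Among TREM and CD300 paralogs outside the members, 6 of 12 had at least 1 TPM in both libraries. The leading ones were the inhibitory receptors Cd300lf, with 73.1 TPM in replicate 1 and 85.5 TPM in replicate 2, and Cd300a, with 21.6 and 27.2 TPM, and then Cd300c2, with 19.4 and 28.2 TPM. Cd300ld5 had 2.01 and 7.55 TPM, a log2 ratio of -1.64 (adjusted p = 8.32e-09, binomial). In replicate 2 its expected count of 105.41 was not whole, nor was that of its paralog Cd300ld3, 39.59. There kallisto gave both genes 4.32 TPM, and in replicate 1 it gave Cd300ld3 4.47 TPM and Cd300ld5 1.3e-06 TPM. The counting may divide reads between these paralogs, so the ratio of Cd300ld5 is uncertain. Treml1, a platelet receptor gene, had 26 counts in replicate 1 and 6 in replicate 2 (adjusted p = 0.00161, binomial). Of the 8 paralogs tested between the libraries, 1 was higher in replicate 1, 2 were higher in replicate 2 and 5 did not pass.

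Other receptors listed as partners of DAP12 or DAP10 were led by Pilrb2, with 136 TPM in replicate 1 and 188 TPM in replicate 2. Pilrb1, with 97.8 and 144 TPM, and Clec5a, with 73.1 and 96.4 TPM, followed. The adaptor of each listed gene, Oscar included, was not checked. Pilrb1 and Pilrb2 are close paralogs whose reads the counting may divide, so their separate levels are uncertain. These 3 exceeded every receptor among the members other than Trem1 and Trem3 on average. Pilrb2 was also above Trem3 in both libraries by RSEM. By kallisto Pilrb2 held only 72.6 and 83.6 TPM, below Trem3 at 111 and 163 TPM. The natural killer cell receptors Klrc2 and Klra4, and the osteoclast-associated receptor Oscar, were at 0 TPM in both libraries. Of the 15 genes 6 had at least 1 TPM in both, and of the 10 tested 1 was higher in replicate 1, 2 were higher in replicate 2 and 7 did not pass.

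The other ITAM chains were led by Fcer1g, the Fc receptor gamma chain, with 381 TPM in replicate 1 and 522 TPM in replicate 2. Fcer1g was thus below Tyrobp in both libraries and above Trem1. Cd3d, annotated as a T cell receptor chain, had 31.8 and 53.3 TPM, while Cd3e had 0.11 and 0.08 TPM. The B cell receptor chains Cd79a and Cd79b had 0.71 and 1.21 TPM in replicate 1, and 3.93 and 6.89 TPM in replicate 2, with log2 ratios of -2.19 and -2.20. Of the 5 chains tested, 0 were higher in replicate 1, 4 were higher in replicate 2 and 1 did not pass.

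Downstream, Syk, the kinase that binds phosphorylated ITAMs, had 229 TPM in replicate 1 and 221 TPM in replicate 2. Its related kinase Zap70 had 0 and 0.05 TPM. Inpp5d, the lipid phosphatase SHIP1, had 182 and 171 TPM, and Ptpn6, the tyrosine phosphatase SHP-1, had 105 and 156 TPM. On counts Syk was higher in replicate 1 (log2 0.24, adjusted p = 1.09e-53, binomial), the opposite direction to Tyrobp and Trem1, and Ptpn6 was higher in replicate 2 (log2 -0.54, adjusted p = 5.04e-70, binomial). Of the 14 kinases and inhibitors tested, 3 were higher in replicate 1, 4 were higher in replicate 2 and 7 did not pass. Among 19 scaffolds and effectors, 17 had at least 1 TPM in both libraries, led by the adaptor Grb2 (74.7 and 86.7 TPM), the phospholipase Plcg2 (67.6 and 84.3 TPM) and the kinase subunit Pik3cd (62.3 and 80.9 TPM). Here 5 were higher in replicate 1, 6 were higher in replicate 2 and 8 did not pass, and Blnk (1.03 and 4.33 TPM) and Lat (1.14 and 0.44 TPM), the linkers of B and T cells, differed over 2-fold.

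Reported ligands of TREM1 and TREM2, listed with the sheddases Adam10 and Adam17, included the most abundant genes of all lists. S100a9 had 13196 TPM in replicate 1 and 27792 TPM in replicate 2, and S100a8 had 8892 and 22882 TPM. Pglyrp1, a peptidoglycan-recognition protein reported to bind TREM1, had 657 and 1051 TPM, close to Tyrobp in both libraries. Hspa1a had 11.4 and 33.7 TPM (log2 -1.32), and Clu had 0.66 and 0.30 TPM, from 22 and 8 counts. Of the 9 tested, 1 was higher in replicate 1, 6 were higher in replicate 2 and 2 did not pass.

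**Figure D4:**
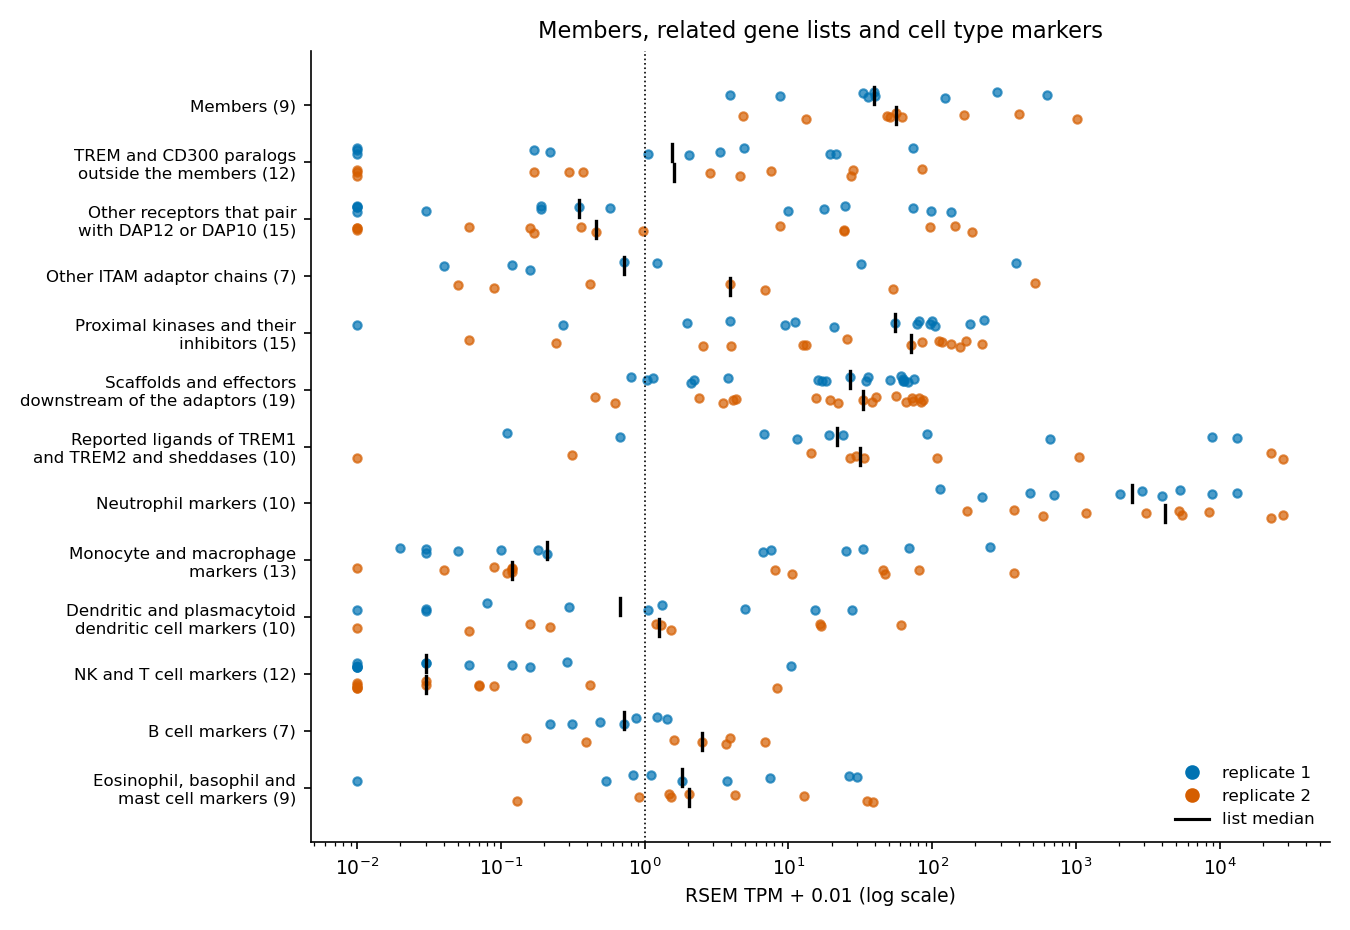
RSEM TPM with 0.01 added (log axis) of the members, the 6 related lists and 6 marker lists, with 1 point per gene, replicate 1 (blue) above replicate 2 (orange), list medians as black bars and 1 TPM dotted. The members have medians of 39.3 and 56.1 TPM, and the receptors listed as other DAP12 or DAP10 partners have medians of 0.34 and 0.45 TPM. NK and T cell markers lie almost entirely below 1 TPM.

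Several members are also expressed by other myeloid cells, so markers of the cells a spleen preparation could hold were read beside them. Of 13 monocyte and macrophage markers, 6 had at least 1 TPM in both libraries, and the list summed to 395 TPM (replicate 1) and 564 TPM (replicate 2). They were led by Ly6c2 (253 and 372 TPM), Csf1r (68.6 and 80.5 TPM) and Ccr2 (32.9 and 47.1 TPM), and they also included Cd68 (25.2 and 45.7 TPM), Adgre1 (7.61 and 10.6 TPM) and Vcam1 (6.67 and 8.02 TPM). All 6 had a higher level than Trem2 in both libraries. The other 7, C1qa, C1qb, C1qc, Mertk, Marco, Ms4a7 and Cd5l, were each at 0.20 TPM or less in both. The part of monocytes and macrophages in the levels of Trem1, Trem2, Trem3 and Tyrobp was not tested.

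Of 12 NK and T cell markers 1 had at least 1 TPM in both libraries, Nkg7 with 10.5 and 8.27 TPM. Next came Cd3g (0.15 and 0.41 TPM) and Cd4 (0.28 and 0.02 TPM), and Ncr1, Gzma, Eomes and Trbc2 were at 0 in both, the whole list summing to 11.1 TPM (replicate 1) and 8.92 TPM (replicate 2). Hcst, which is also known as the partner of NKG2D in NK cells, had a higher level than that whole list, and Klrk1, which encodes NKG2D, had 0.18 and 0.16 TPM. Of 7 B cell markers 5 passed with higher counts in replicate 2 and 0 with higher counts in replicate 1. The list summed to 5.18 TPM (replicate 1) and 19.1 TPM (replicate 2), led by Cd79b, Pax5 (1.41 and 3.70 TPM) and Cd79a. Dendritic cell markers summed to 50.7 and 98.9 TPM, with Xcr1 at 0 in both, 5 of 10 at 1 TPM or more in both, and Cd74 (27.8 and 61.1 TPM), Itgax (15.2 and 16.7 TPM) and H2-Ab1 (4.98 and 16.7 TPM) leading. Markers of eosinophils, basophils and mast cells summed to 71.6 and 97.0 TPM, with 6 of 9 at 1 TPM or more in both, led by Prss34 (30.0 and 35.3 TPM), Mcpt8 (26.3 and 38.6 TPM) and Prg2 (7.39 and 12.8 TPM). By deposited TPM all of these lists but that of NK and T cells had a higher sum in replicate 2. By protein-coding TPM the eosinophil, basophil and mast cell list summed to 218 in replicate 1 and 214 in replicate 2, and the monocyte and macrophage list to 1202 and 1242. On that scale the dendritic cell list (155 and 218), the B cell list (15.8 and 42.1) and the neutrophil list (115028 and 165719) kept a higher sum in replicate 2. The part of each list in the members' levels was not tested.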

How the data were processed

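The authors deposited, per library, a gene and a transcript table in RSEM layout, with expected counts, TPM and, for genes, FPKM from transcriptome alignments, and a transcript table in kallisto layout with estimated counts and TPM from the FASTQ file. The files' notes and labels name mm10 and GENCODE M21. The program versions, the strand setting and how CAST alleles were treated are each not given in the sources used here. The tables hold no values per allele. The deposited posterior standard deviation of a transcript's count is given as a score of read assignment. Expected counts were rounded for tests, and 8 of the 9 members had whole ones, as did 81.9% of genes tested. Spike-in and tRNA entries (0.424% of counts in replicate 1 and 0.260% in replicate 2) stayed out of tests.

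Levels are mean and SD of 2 libraries. Ratios between the libraries, on the log2 scale, put replicate 1 over replicate 2 after adding 0.5 to the counts. Scaling and the edgeR exact test used edgeR 4.0.16 and DESeq2 1.42.0 in R 4.3.3. Binomial tests used SciPy 1.17.1 in Python 3.11.15 and were tested on simulated libraries with counting error only. There 57 of 60 genes changed 2-fold and with over 100 counts in both libraries together were recovered, and 5 unchanged genes were called. The simulation lacks the wider variation of the real libraries, so it does not show how often the test overcalls on them. The n of 2 follows the labels. The libraries differed beyond sampling noise over the genes tested (chi-square of 47.6 per gene), so they are not 1 library deposited again. This leaves unknown whether the animals were separate. Windows of 100 nt were matched against all GENCODE M21 transcripts. Members and lists were chosen with earlier results of these data known. Named genes are the members and, per pathway list, the 3 highest by mean TPM and those passing the binomial test with at least a 2-fold difference, or, per marker list, the 3 highest. Adgre1, Cd68, Vcam1, Cd3e, Zap70, Klrk1, Klrc2, Klra4 and Oscar were named after their values were seen. So were Cd300ld3, Cd300 genes sharing sequence, and markers at or near 0.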

Additional observations from a re-analysis of the deposited data

How the results depend on the processing

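All 9 members kept at least 1 TPM in both libraries by kallisto, by FPKM, by protein-coding TPM, at minimums of 0.5 and 2 TPM and in either library alone. The number of members called between the libraries was 7 with DESeq2 size factors and with total counts, 9 with ERCC scaling, 6 with no count minimum and 6 on kallisto counts, and 0 by the edgeR exact test with a common dispersion. The share of all genes tested that was called was 32.1% with DESeq2 size factors, 32.4% with total counts and 75.1% with ERCC scaling. It was 21.3% with no count minimum, 31.1% on kallisto counts and 1.63% by the edgeR exact test. Over all genes 4850 were called in the main setting, against 11350 with ERCC scaling and 247 by the edgeR exact test. With ERCC scaling the Trem2 ratio was -0.74 (adjusted p = 0.000421, binomial), against 0.00, and by protein-coding TPM, a scale chosen after seeing the data, that of Trem3 was 0.010 and that of the summed eosinophil, basophil and mast cell markers 0.031, against -0.44 by deposited TPM. No members were apart between the quantifiers at 1.5-fold or with 1 TPM added, where 2223 and 1282 of all 13328 genes compared were. The log2 ratio of Tyrobp to the receptors was 0.36, 0.22 by kallisto, and 0.27 to 0.44 with either library left out. Of the 78 list genes 56 passed a minimum of 0.5 TPM and 50 one of 2 TPM. The causes were not tested. The comparison between the libraries cannot be repeated with 1 left out, and 2 libraries give a wide SD. No paired analysis was possible because there is 1 group.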
